A study of Mus musculus with 14 samples.

Results

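The response of the proximal epididymis to efferent duct ligation (EDL) was followed in control (Ctl) mice, as the difference between 4 Ctl EDL arrays and 4 Ctl sham arrays, which were 8 of the 14 arrays of the series. The arrays were chosen by their titles (replicate numbers 2, 3, 4 and 5 in both groups), and all 21929 genes of the deposited log2 table were tested. The mice were 8 weeks old, and each had 1 epididymis ligated and the other sham-operated. Tissue was frozen 48 h after surgery, and 100 ng of total RNA was hybridised to each single-colour Affymetrix array. The other arrays, 3 cKO EDL and 3 cKO sham, came from mice with a conditional knockout of Arl13b, a gene for a small GTPase of cilia, in Krt5-positive basal cells. The labels give the control genotype only as ctl, with no strain, allele or Cre line, and do not say whether a mouse stands behind each array alone or in a pool. All values are log2 intensities, so that a change of 1 is 2-fold, and errors of changes are moderated standard errors from limma (SE, n = 4 arrays a group).

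The efferent ducts carry sperm and fluid from the testis into the initial segment, the first part of the epididymis. The principal cells of that segment depend on testicular factors that arrive in this fluid, a route called lumicrine signalling. In the mouse, NELL2 from germ cells acts on the receptor tyrosine kinase ROS1 of these cells, ERK signalling is active in them, and the PEA3 family of ETS transcription factors (Etv1, Etv4, Etv5) is expressed downstream. The segment secretes proteins of the beta-defensin, lipocalin, cystatin and ribonuclease families, which coat and mature the passing sperm.

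The labelled tissue was checked against 6 markers of proximal epididymal epithelium, and all were above the signal of 1463 receptor genes of smell and of the vomeronasal organ, taken as a background of genes the tissue does not use (median 3.69, 95th percentile 5.31). Gpx5, a secreted glutathione peroxidase of the caput, read 13.78, 13.72, 13.61 and 13.68 in Ctl EDL and 13.72, 13.68, 13.62 and 13.64 in Ctl sham tissue. Its change was 0.03 ± 0.06 (95% interval -0.10 to 0.16), and that of the defensin-like Spag11b was 0.05 ± 0.08, neither past the threshold (limma adjusted p = 0.844 and 0.795). The Gpx5 values, like those of Lcn8 in Ctl sham tissue, lay near the highest log2 value of the data (13.91). Whether changes are narrowed at such levels was not tested. Crisp1, a secreted sperm-coating protein, read 12.66 to 12.89 in Ctl EDL and 12.36 to 12.52 in Ctl sham tissue, with a change of 0.31 ± 0.09 at the edge of the threshold (limma adjusted p = 0.0491). With the replicate number as a fixed block it did not pass (adjusted p = 0.0764), nor without any 1 of the 8 Ctl arrays or any of 4 cKO arrays (cKO EDL replicates 2, 3 and 4, cKO sham replicate 4). Across these it was 0.27 to 0.35, with adjusted p from 0.0514 to 0.159; here and in later ranges of this kind, leaving out both arrays of a number is included. The other 3 markers, Rnase10, Lcn9 and Lcn8, fell and are described with their families. Arl13b itself, which Ctl mice carry, read 7.33, 7.36, 7.60 and 7.42 in Ctl EDL and 6.87 to 7.46 in Ctl sham tissue, a change of 0.33 ± 0.13 that did not pass (limma adjusted p = 0.147); without Ctl sham replicate 5 it was 0.45 and did (adjusted p = 0.0301).

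After ligation 727 genes were higher (3.32% of those tested) and 1002 were lower (4.57%) in limma (p adjusted by Benjamini-Hochberg over the whole table, under 0.05), the threshold used throughout. The gene list counts past the threshold below are to be read against these shares. Counts at an unadjusted p under 0.05 are not. The falls reached much further than the rises: 231 genes fell at least 2-fold and 54 rose at least 2-fold, 77 fell and 1 rose at least 4-fold, and 11 fell at least 16-fold. The EDL mean of 85 fallen genes lay below the receptor percentile while their sham mean lay above it, and 35 of the risen genes crossed it in the other direction. The 4 EDL arrays lay below all 4 sham arrays for 1624 genes (7.41%) and above them for 1466 genes (6.69%). Of the genes past the threshold, 946 of the lower and 641 of the higher ones had no such overlap. The groups were about equally tight, with a median SD of 0.14 in Ctl EDL and 0.13 in Ctl sham tissue. The median change of all genes was 0.008, and rises made up 42.0% of the calls. With each array centred on its median, 567 genes were higher and 1163 lower, and rises made up 32.8%. In the second deposited table of the same arrays, whose normalization is unknown here, log2 changes were wider: over the 1729 genes past the threshold the median ratio to the changes printed here was 1.64 (quartiles 1.46 and 1.77), with no sign changed. Teddm2, for example, changed by -10.78 there and -6.60 here, Etv5 by -7.08 and -4.61, Lss by -1.94 and -1.11, and Sectm1b by 3.51 and 2.27. All folds given are those of the first table, and their size depends on that choice. The count of rises moved with single arrays: it was 481 without Ctl sham replicate 2, 412 without Ctl sham replicate 5 and 436 without Ctl EDL replicate 5.

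**Figure D1:**
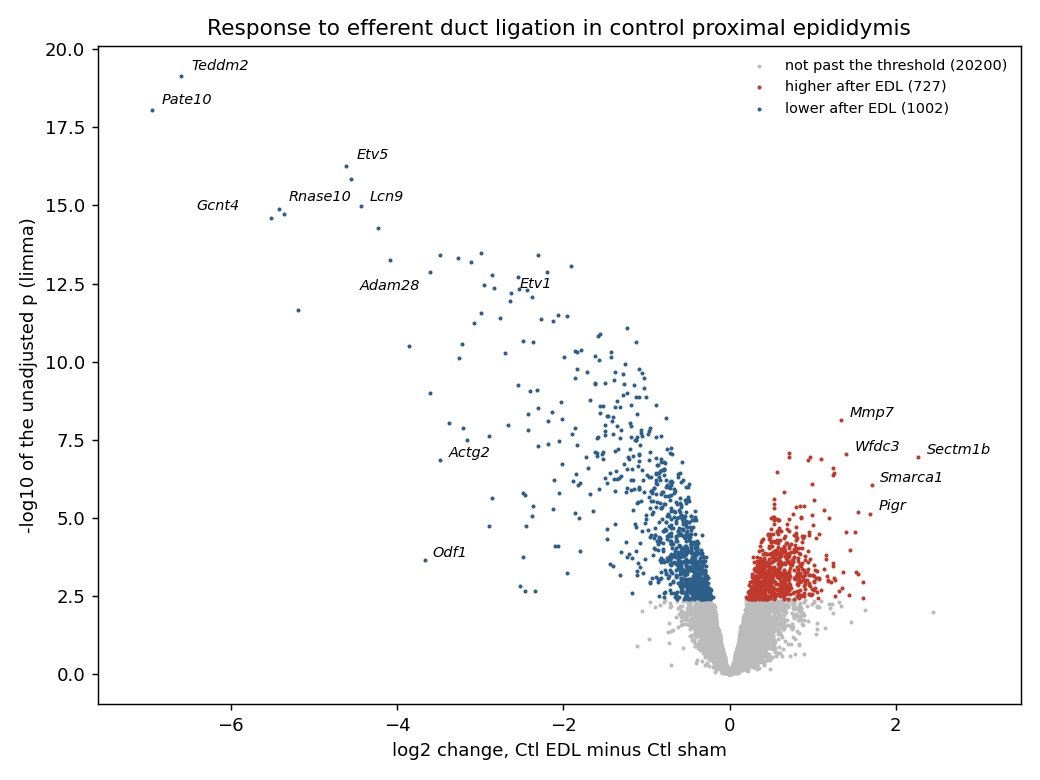
Each point is a gene, with the log2 change (Ctl EDL minus Ctl sham) on the horizontal axis and -log10 of the unadjusted limma p on the vertical axis. The 1002 lower genes (blue) reach down to a change of -6.95, while the 727 higher genes (red) reach 2.27.

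Several arrays differed from their group in the levels of cell type genes. Ctl EDL replicate 4 held the highest sperm transcripts of the ligated side and Ctl EDL replicate 2 the lowest macrophage transcripts of that side. Ctl sham replicate 3 was high in stromal and proliferation genes, with a median over 21 proliferation genes 0.75 above the sham mean against -0.28 to -0.16 in the other sham arrays, and Ctl sham replicate 5 was lowest in macrophage genes. On the first principal component of all 14 arrays, which held 47.6% of the variance, the 4 Ctl EDL arrays lay at 16.8, 24.7, 24.9 and 27.1 and the 4 Ctl sham arrays at -24.1, -13.8, -19.1 and -28.5. In such bulk tissue, fewer cells of a type and less RNA per cell cannot be told apart.

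The PEA3 factors fell together. Etv5 read 7.31, 7.42, 7.46 and 7.50 in Ctl EDL and 12.09, 11.92, 11.99 and 12.13 in Ctl sham tissue, a 24.4-fold fall (-4.61 ± 0.10, limma adjusted p = 3.96e-13). Every ligated side lay more than 4 log2 units below every sham side. Etv4 read 6.96, 6.57, 6.36 and 5.46 in Ctl EDL and 9.36, 8.86, 9.30 and 9.44 in Ctl sham tissue (7.49-fold lower), with Ctl EDL replicate 5 the lowest. Etv1 read 6.33 to 6.95 in Ctl EDL and 9.15 to 9.35 in Ctl sham tissue (6.17-fold lower). The changes of Etv4 and Etv1 were -2.90 ± 0.26 and -2.63 ± 0.11 (limma adjusted p = 4.41e-06 and 5.5e-10).

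Among 13 feedback inhibitors of the ERK pathway, which ERK activity induces and which dampen it, 9 fell, none rose, and 4 did not pass; the list median was -0.58, against 0.008 over all genes. The ERK phosphatase gene Dusp6 read 7.99, 8.37, 8.62 and 8.69 in Ctl EDL and 10.69, 10.74, 10.76 and 10.94 in Ctl sham tissue (5.15-fold lower). The nuclear ERK phosphatase gene Dusp5 read 7.99 to 8.36 in Ctl EDL and 10.05 to 10.20 in Ctl sham tissue, a fall of 3.86-fold. Dusp4 fell 3.07-fold, Spry1 2.16-fold and Spred2 1.97-fold; the last 2 encode inhibitors that act between the receptor and ERK. None of these 5 genes had overlapping groups. Spred1, Dusp7, Spry4 and Spry2 also fell (-0.67 to -0.40), while Spred3, Spry3, Dusp9 and Il17rd lay between -0.11 and 0.08 and did not pass.

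Of 18 immediate early genes, which growth factors and stress induce, 5 fell and 13 did not pass, with a median of -0.01. Egr1, an ERK-responsive zinc finger factor, read 8.32, 8.20, 8.10 and 8.23 in Ctl EDL and 9.67, 9.40, 9.52 and 9.50 in Ctl sham tissue (2.48-fold lower, limma adjusted p = 3.1e-06). Ier3, Ier2, Nr4a1 and Egr2 fell by 1.02, 0.60, 0.55 and 0.44 on the log2 scale. Fos and Fosb (0.11 each), Atf3 (0.03), Junb (-0.10) and Myc (0.51) did not pass. Ccnd1, the cyclin that growth factor signalling induces in G1, read 9.61 to 9.94 in Ctl EDL and 10.50 to 10.61 in Ctl sham tissue, a fall of 1.69-fold (limma adjusted p = 0.000577). It was the only member past the threshold among 21 proliferation genes (4.76% lower, against 4.57% of all genes), whose median was 0.36.

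Of the receptors and ligands, 2 of 19 FGF genes rose and none fell. Fgfr2 read 8.77, 8.72, 8.87 and 8.91 in Ctl EDL and 8.41, 8.58, 8.10 and 8.13 in Ctl sham tissue (0.51 ± 0.11, limma adjusted p = 0.0108), and the ligand gene Fgf7 changed by 0.59 ± 0.12 at levels of the receptor background on both sides. Of 14 EGF family genes, the ligand gene Nrg4 fell (-0.50 ± 0.09), and Errfi1, a feedback inhibitor of the EGF receptor, rose by 0.34 ± 0.08. Errfi1 did not pass without replicate 5 of Ctl EDL or 3 or 4 of Ctl sham (0.28 to 0.35, adjusted p from 0.0529 to 0.107). The third call, Erbb4, lay near the background, with means of 5.48 in Ctl EDL and 4.95 in Ctl sham tissue. It did not pass without Ctl EDL replicate 2, 4 or 5, Ctl sham replicate 3, 4 or 5, any 1 cKO sham array or cKO EDL replicate 4 (0.40 to 0.58, adjusted p from 0.0586 to 0.293).

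The lumicrine list had 7 measured genes, of which 5 fell. Ptpn6, encoding a tyrosine phosphatase that acts on ROS1, was higher by 0.26 ± 0.07 at the edge of the threshold (limma adjusted p = 0.0476). It did not pass with the fixed replicate block (adjusted p = 0.0659), with centred arrays (0.0877), with only the 8 Ctl arrays, or without any 1 array other than Ctl EDL replicate 2 (0.0527 to 0.138). Ros1 stayed well expressed: it read 11.10, 10.62, 11.01 and 11.03 in Ctl EDL and 11.49, 11.23, 11.38 and 11.33 in Ctl sham tissue, so that the groups did not overlap but differed by only -0.42 ± 0.11 (1.34-fold, limma adjusted p = 0.034). It did not pass without any 1 of Ctl EDL replicates 3, 4 and 5 or Ctl sham replicates 2, 4 and 5 (-0.45 to -0.31, adjusted p from 0.0526 to 0.108). Nell2, which germ cells of the testis make, lay at the receptor background on both sides, with means of 4.50 in Ctl EDL and 4.63 in Ctl sham tissue. The protease genes downstream fell clearly. Adam28, a membrane metalloprotease of the initial segment, read 9.49, 8.98, 8.73 and 9.15 in Ctl EDL and 12.81, 12.61, 12.57 and 12.78 in Ctl sham tissue (12.1-fold lower). Ovch2, a secreted serine protease that mouse sperm need for maturation, read 11.10 to 11.53 in Ctl EDL and 12.80 to 13.06 in Ctl sham tissue (3.07-fold lower). Adam3 and Adam2, sperm surface proteins made in the testis, fell by 1.31 and 0.37 at levels near the background. Adam2 did not pass with the fixed replicate block (adjusted p = 0.0843), nor without replicate 2 or 3 of Ctl EDL or 2, 3 or 4 of Ctl sham (-0.39 to -0.27, adjusted p from 0.055 to 0.175). The count of falls in the list was 3 without Ctl sham replicate 2 or 4, and 3 without Ctl EDL replicate 3.

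The largest fall was that of Pate10. This gene, of a family of small cysteine-rich secreted proteins, read 3.38, 3.49, 3.63 and 3.51 in Ctl EDL and 10.64, 10.23, 10.42 and 10.53 in Ctl sham tissue. The ligated sides were at the background, so that the fall was at least 35.3-fold (-6.95 ± 0.11, limma adjusted p = 9.84e-15; bounds here are taken against the 95th percentile of the receptor genes). Teddm2, an epididymal membrane protein gene, read 6.54, 6.87, 6.44 and 6.69 in Ctl EDL and 13.28, 13.17, 13.25 and 13.24 in Ctl sham tissue, a 97-fold fall. Gcnt4, an enzyme that branches mucin-type O-glycans, read 6.35, 5.78, 6.32 and 6.56 in Ctl EDL and 11.81, 11.66, 11.72 and 11.88 in Ctl sham tissue, a 45.8-fold fall. The promoters of these 3 genes (RefSeq, GRCm38.p6, 250 bases before to 50 after the start) are shown because they had the 3 largest falls with an entry in the promoter table. Capitals mark AGGAAG, a core to which ETS factors such as the PEA3 family bind, searched on both strands.
Pate10: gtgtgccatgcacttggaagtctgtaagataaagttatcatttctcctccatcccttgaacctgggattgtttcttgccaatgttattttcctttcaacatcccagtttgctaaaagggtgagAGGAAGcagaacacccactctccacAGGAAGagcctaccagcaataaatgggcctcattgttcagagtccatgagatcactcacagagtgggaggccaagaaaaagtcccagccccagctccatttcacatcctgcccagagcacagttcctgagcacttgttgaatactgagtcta
Teddm2: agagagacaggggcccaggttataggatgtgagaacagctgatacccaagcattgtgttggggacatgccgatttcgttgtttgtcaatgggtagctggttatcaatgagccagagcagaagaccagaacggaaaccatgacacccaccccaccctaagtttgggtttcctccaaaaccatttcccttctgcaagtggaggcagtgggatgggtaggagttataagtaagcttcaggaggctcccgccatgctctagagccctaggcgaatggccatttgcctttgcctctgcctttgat
Gcnt4: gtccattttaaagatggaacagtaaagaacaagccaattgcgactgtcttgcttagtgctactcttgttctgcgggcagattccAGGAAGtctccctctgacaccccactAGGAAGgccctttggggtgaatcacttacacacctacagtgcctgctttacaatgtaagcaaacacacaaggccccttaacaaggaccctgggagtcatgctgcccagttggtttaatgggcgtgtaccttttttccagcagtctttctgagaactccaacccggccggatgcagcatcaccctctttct
The windows are chr9:35740710-35741009 on the plus strand for Pate10, chr1:153851146-153851445 on the minus strand for Teddm2 and chr13:96924094-96924393 on the plus strand for Gcnt4, the first of 2 windows listed for that gene. Pate10 held 2 copies, with first bases at -127 and -102 from the start, Gcnt4 held 2, at -166 and -140, and Teddm2 held none. At least 1 copy was present in 35.1% of all 27025 listed promoters. The AP-1 motif TGANTCA, searched in the same way, was present in Gcnt4 and in 7.93% of all promoters. A promoter was listed for 179 of the 231 genes that fell at least 2-fold; with promoters missing for the others, no share over that set is given. A match in these 3 windows is a description and says nothing of the other falls.

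Within the secreted families, a few members fell very far and most did not pass. Of 41 beta-defensin genes 4 fell and 5 rose. Defb48 read 7.91, 7.56, 7.10 and 7.76 in Ctl EDL and 13.10, 12.80, 12.96 and 12.91 in Ctl sham tissue (41.1-fold lower), Defb25 fell 5.77-fold and Defb47 2.56-fold. Defb3 read 5.12 to 5.48 in Ctl EDL and 5.77 to 6.47 in Ctl sham tissue. The 5 that rose moved by 0.33 to 0.62, the most in Defb10. Of 12 Pate genes only Pate10 and Pate5 (3.58-fold) passed, and of 4 Teddm genes Teddm2 and Teddm1a (36.6-fold). Members of such families resemble each other, and how well the probe sets separate them was not tested.

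Among 10 lipocalins, carriers of small lipids, 4 fell and 6 did not pass. Lcn9 read 8.28, 8.62, 8.45 and 8.45 in Ctl EDL and 12.98, 12.78, 12.81 and 12.96 in Ctl sham tissue (21.6-fold lower). Lcn8 stayed high, at 12.48 to 12.58 in Ctl EDL and 13.51 to 13.65 in Ctl sham tissue, a fall of 2.07-fold. Lcn10 fell 2.43-fold and Lcn6 1.67-fold, while Lcn5, a caput lipocalin that binds retinoids, changed by 0.13. Of 12 genes of the RNase A family only Rnase10 passed. It encodes a secreted protein without ribonuclease activity that mouse sperm need for adhesion and transit, and read 7.64, 7.73, 8.11 and 7.94 in Ctl EDL and 13.27, 13.24, 13.25 and 13.32 in Ctl sham tissue (42.7-fold lower). Of 12 cystatins, cysteine protease inhibitors, Cst8 fell 7.77-fold, Cst11 2.66-fold and Cst12 1.93-fold, and Cstl1 fell at the background.

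**Figure D2:**
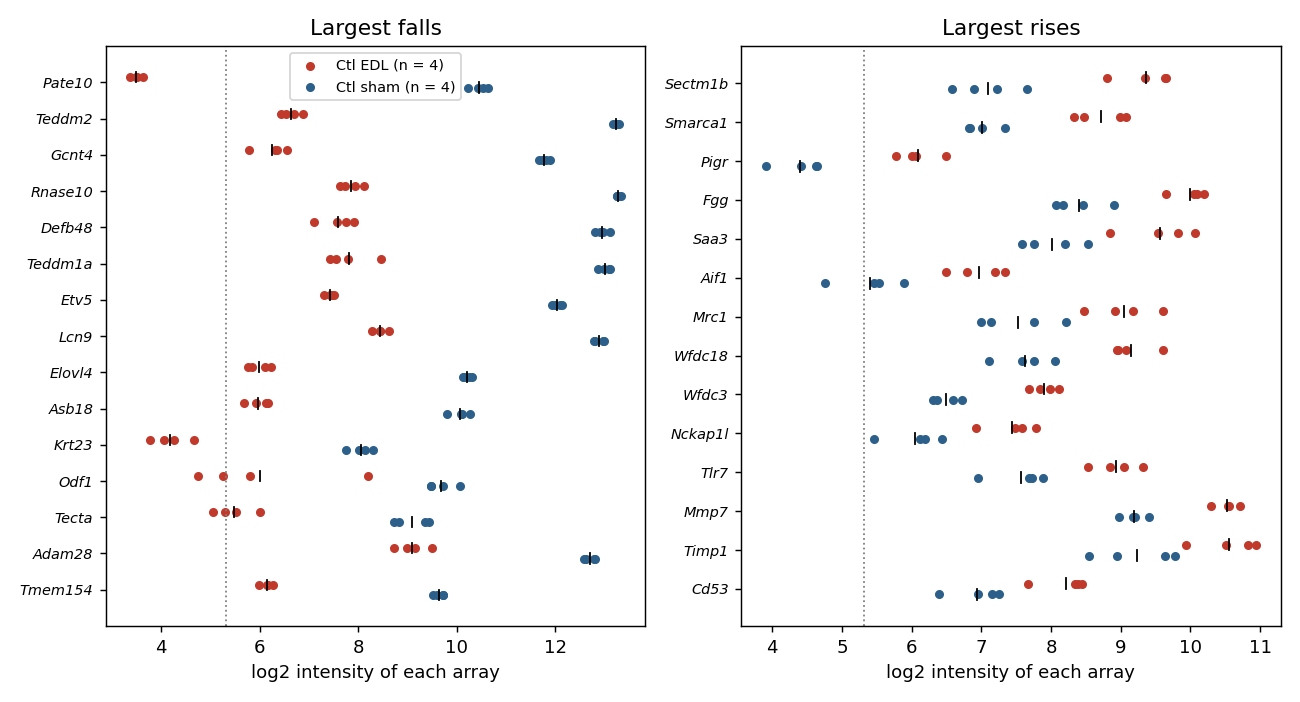
Log2 intensity in each Ctl EDL array (red) and Ctl sham array (blue) for the largest falls (left) and largest rises (right), with a bar at each group mean and a dotted line at the 95th percentile of receptor genes (5.31). The groups of each gene shown lie apart, and Odf1 has 1 ligated side at 8.20 against 4.76 to 5.80 in the others.

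Other genes among the 15 largest falls were Asb18 (16.9-fold), Krt23, a keratin, with at least 6.67-fold, Tecta (12.3-fold), an extracellular matrix protein best known from the inner ear, and Tmem154 (11.2-fold). The EDL mean of Tecta, 5.47, lay just above the 95th percentile of receptor genes (5.31), so that its fold is not exact. Glycan enzymes were again split: of 31 mucin and N-glycan enzymes 6 fell and 2 rose (no rise without replicate 3 or 5 of Ctl EDL or 5 of Ctl sham, and 1 without replicate 2 or 4 of either Ctl group or cKO sham replicate 4). Besides Gcnt4, Galnt6, which starts O-glycans, fell 4.37-fold, the sialyltransferase genes St6galnac2 and St3gal1 fell 2.87-fold and 2.29-fold, and Fut8, which adds core fucose, 1.80-fold.

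Among genes of lipid synthesis, those of cholesterol synthesis fell broadly. Of 18 measured enzymes of cholesterol synthesis 13 fell and none rose, and their median was -0.52. Every member changed by less than 0 on the log2 scale, and for 16 of 18 the 4 ligated sides lay below the 4 sham sides, against 7.41% of all genes. Lss, which closes the sterol ring, read 9.51, 9.44, 9.54 and 9.50 in Ctl EDL and 10.69, 10.59, 10.42 and 10.74 in Ctl sham tissue (2.16-fold lower, limma adjusted p = 1.13e-06). Dhcr7, which makes cholesterol in the last step, read 7.04 to 7.58 in Ctl EDL and 8.29 to 8.76 in Ctl sham tissue (2.37-fold lower). Cyp51, Msmo1 and Pmvk fell by 0.88, 0.84 and 0.79, while Mvk, Fdps, Ebp and Hmgcs1 (-0.30 to -0.19) did not pass.

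Of 15 genes of sterol regulation and uptake, 3 fell and 2 rose (1 rise without replicate 2 or 5 of Ctl EDL or 3 or 4 of Ctl sham). Insig1, a sterol-sensing regulator that is itself an SREBP target, fell 1.67-fold (-0.74 ± 0.09), and Srebf1, the gene of SREBP-1, fell by 0.43. Nr1h3, which encodes the oxysterol receptor LXR alpha, rose by 0.50 ± 0.10. Of 13 fatty acid elongases and desaturases 6 fell and 7 did not pass, with a list median of -0.08. Elovl4, which makes very long chain fatty acids, read 6.11, 5.76, 5.85 and 6.24 in Ctl EDL and 10.25, 10.13, 10.15 and 10.31 in Ctl sham tissue (18.7-fold lower). Scd1, the stearoyl-CoA desaturase, fell 2.63-fold, and Elovl7, Elovl6 and Scd2 fell by 0.75, 0.46 and 0.42, while Fads1 and Fads2 changed by 0.02 and 0.04.

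Srd5a1, a 5 alpha-reductase, fell by 0.48 ± 0.10, while Srd5a2, the other isozyme, changed by -0.05 ± 0.08 and did not pass. Without both arrays of replicate 2, 4 or 5 Srd5a1 did not pass either (-0.47 to -0.40, limma adjusted p from 0.0524 to 0.106). The oestrogen receptor gene Esr1 rose by 0.44 ± 0.08, and Gper1, a membrane oestrogen receptor, fell by 0.71 ± 0.14. Stra6, the cell surface receptor for retinol-binding protein, read 9.56, 9.68, 9.55 and 10.05 in Ctl EDL and 8.63, 8.57, 8.26 and 8.36 in Ctl sham tissue (2.39-fold higher, limma adjusted p = 4.22e-05), the only 1 of 17 retinoid genes to pass. That is 5.88% of the list higher, against 3.32% of all genes.

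Of 18 tight junction genes, which seal the epithelium, 4 fell and 1 rose (none without Ctl EDL replicate 3 and 2 without cKO sham replicate 4). Cldn10 read 7.43, 7.71, 7.62 and 8.06 in Ctl EDL and 9.13, 9.05, 9.11 and 9.15 in Ctl sham tissue (2.65-fold lower), and Cldn4 and Cldn2 fell 1.64-fold each. The water channel gene Aqp9 fell 1.54-fold, as did the bicarbonate transporter gene Slc4a4. In the clear cell list 2 of 8 rose, Foxi1 (0.37 ± 0.08) and the proton pump subunit gene Atp6v0a4 (0.53 ± 0.07).

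**Figure D3:**
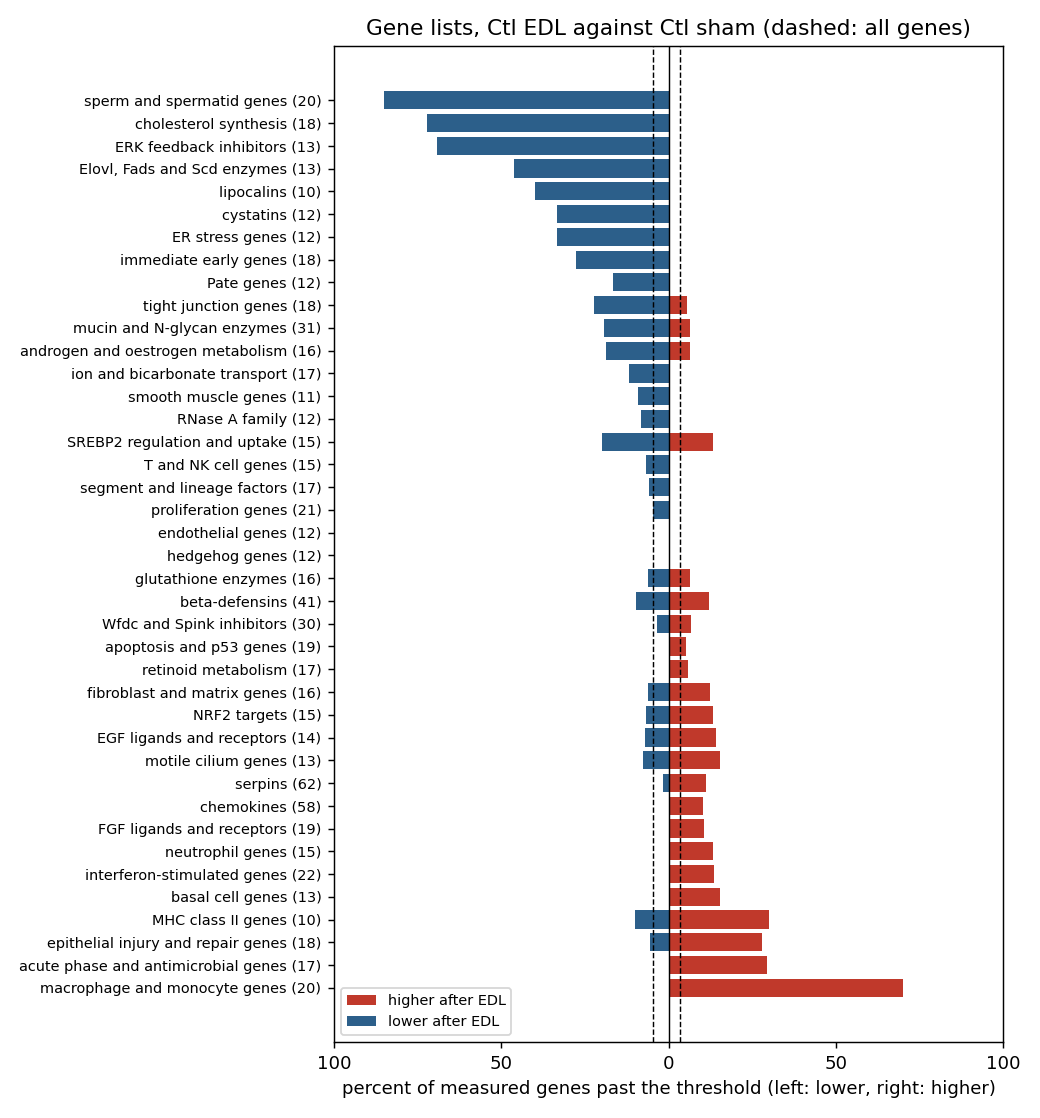
For each gene list with at least 10 measured genes, the bars give the percent of its measured genes (number in parentheses) that were higher (red, right) or lower (blue, left) in Ctl EDL than in Ctl sham tissue. The dashed lines mark 3.32% higher and 4.57% lower over all genes; the sperm list has 85% of its genes lower and the macrophage list 70% higher.

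Transcripts of sperm and spermatids, which reach the epididymis inside sperm from the testis, were lower on the ligated side. Of 20 such genes 17 fell and none rose, with a median of -1.24. Prm2, a protamine that packs sperm DNA, read 6.48, 6.22, 8.03 and 6.42 in Ctl EDL and 9.84, 9.71, 9.36 and 9.69 in Ctl sham tissue (7.28-fold lower, limma adjusted p = 0.00018). Odf1, of the outer dense fibres of the sperm tail, read 5.26, 5.80, 8.20 and 4.76 in Ctl EDL and 9.47, 10.06, 9.47 and 9.72 in Ctl sham tissue (12.8-fold lower, limma adjusted p = 0.00671). In both genes replicate 4 of the ligated side lay well above the other 3, and still below all sham sides. For Odf1 the ligated values of 5.26 and 4.76 lay below the 95th percentile of receptor genes (5.31), so that its fold is not exact. Without both arrays of replicate 5 Odf1 did not pass (-3.25, adjusted p = 0.0662). Prm1 fell 5.47-fold, the tail scaffold gene Akap4 at least 2.02-fold, Oaz3 at least 3.85-fold and the sperm glycolysis gene Pgk2 1.83-fold. The summed linear intensity of the list was 865 to 1620 in Ctl EDL and 3128 to 4789 in Ctl sham arrays. The part of sperm in the changes of other genes was not tested.

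Macrophage and monocyte genes were higher on the ligated side: 14 of 20 rose, none fell, and the median was 0.97. Aif1 read 6.50, 6.80, 7.20 and 7.34 in Ctl EDL and 5.46, 5.89, 5.53 and 4.76 in Ctl sham tissue (2.93-fold higher, limma adjusted p = 0.00044). Cd68, a lysosomal glycoprotein of macrophages, read 10.66, 10.84, 10.80 and 10.83 in Ctl EDL and 10.06, 9.61, 9.97 and 9.72 in Ctl sham tissue (1.92-fold higher). The mannose receptor gene Mrc1 rose 2.86-fold. Ms4a7 rose 2.36-fold, the complement genes C1qc and C1qb 2.03-fold and 2.01-fold, and Adgre1, a surface marker of mouse macrophages, 1.58-fold. The median of the list, relative to the sham mean, was 0.69 to 1.19 on the ligated side and -0.43 to 0.33 on the sham side, so that all ligated sides lay above all sham sides. The count was 10 to 18 with 1 array left out and 7 to 14 with both arrays of a number left out. Lyz2 (1.32), Itgam (1.05), Cd163 (0.86), Fcgr1 (0.70), Mertk (0.34) and Ccr2 (1.63) did not pass. Of the genes shared with other immune cells among the largest rises, Nckap1l, a haematopoietic actin regulator, rose 2.63-fold and the RNA sensor gene Tlr7 2.59-fold.

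Neutrophil genes gave 2 rises in 15 and a median of 0.45, and 6 of the 15 had means at or below the 95th percentile of receptor genes in both groups. Cxcr2, the receptor for neutrophil chemokines, rose by 0.63 ± 0.15 (limma adjusted p = 0.0151). Its Ctl sham mean of 5.35 lay just above the 95th percentile of receptor genes (5.31). Cxcr2 did not pass without both arrays of replicate 4 or 5 (0.49 to 0.64, limma adjusted p from 0.0528 to 0.0871). S100a8 read 4.41, 5.79, 6.56 and 6.08 in Ctl EDL and 4.15, 4.58, 4.41 and 3.95 in Ctl sham tissue (1.44 ± 0.40, limma adjusted p = 0.0414). Its sham side was at the background, so that the rise was at least 1.32-fold. The groups of S100a8 overlapped through Ctl EDL replicate 2, and without that array 7 neutrophil genes rose. S100a8 did not pass without any other 1 of the Ctl arrays or without cKO EDL or cKO sham replicate 4. Across these its change was 1.15 to 1.54 (limma adjusted p from 0.0519 to 0.251). The list held 1 rise without any such single array, and 0 to 6 with both arrays of a number left out. No B cell gene of 7 passed in limma (0 at an unadjusted p under 0.05), and 1 of them lay above the background. Of 15 T and NK cell genes only Zap70 passed, and it fell: it read 5.64, 5.43, 5.04 and 5.57 in Ctl EDL and 7.47, 7.22, 7.91 and 7.81 in Ctl sham tissue (4.53-fold lower, limma adjusted p = 7.28e-06). Its EDL mean of 5.42 lay just above the 95th percentile of receptor genes (5.31), so that this fold is not exact. The T cell receptor genes Cd3e (-0.03), Cd3d (-0.18) and Cd3g (0.18) did not pass.

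Of 10 MHC class II genes 3 rose and 1 fell. Cd74, the invariant chain, read 10.80, 11.41, 11.12 and 11.31 in Ctl EDL and 10.38, 10.41, 10.63 and 10.39 in Ctl sham tissue (1.63-fold higher). H2-Ab1 and H2-Aa rose by 0.70 and 0.55, and H2-DMb2 fell by 0.55. The rises in this list numbered 1 without replicate 3 or 5 of Ctl EDL or 2 of Ctl sham, where H2-Ab1 and H2-Aa did not pass; H2-Aa did not pass without replicate 4 of Ctl EDL or 3 of Ctl sham either (adjusted p from 0.0518 to 0.143 for both genes). Of 58 chemokine genes and receptors 6 rose and none fell, among them Cxcl16 (1.48-fold) and Cx3cr1 (1.78-fold), a receptor of macrophages. Of 22 interferon-stimulated genes 3 rose, among them Irf9 and Irf1 by 0.40 and 0.41, and 6 rose without Ctl sham replicate 3.

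Of 17 acute phase and antimicrobial genes 5 rose. Pigr, which carries immunoglobulin A across epithelia, read 5.78 to 6.50 in Ctl EDL and 4.41, 4.63, 4.64 and 3.91 in Ctl sham tissue, from the background, so that the rise was at least 1.71-fold (limma adjusted p = 0.00049). Saa3, a serum amyloid A of tissues, read 8.84, 9.53, 10.07 and 9.82 in Ctl EDL and 8.53, 8.20, 7.59 and 7.75 in Ctl sham tissue (2.93-fold higher, limma adjusted p = 0.0142), and did not pass with the fixed replicate block (adjusted p = 0.0585). Fgg, the fibrinogen gamma chain, read 9.65 to 10.19 in Ctl EDL and 8.07 to 8.90 in Ctl sham tissue (3.03-fold higher, limma adjusted p = 0.021). It did not pass without replicate 3 or 4 of Ctl EDL or 3 or 5 of Ctl sham (1.49 to 1.70, adjusted p from 0.0518 to 0.106). Without Ctl EDL replicate 3 the list held 3 rises, and without Ctl sham replicate 5 it held 2. Lcn2, an antimicrobial lipocalin, changed by 0.0047.

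Mmp7, a matrix protease of injured and secretory epithelia, read 10.29, 10.55, 10.54 and 10.71 in Ctl EDL and 9.20, 9.17, 9.40 and 8.97 in Ctl sham tissue (2.52-fold higher, limma adjusted p = 1.68e-06). Wfdc3 and Wfdc18, of a family of secreted protease inhibitors, rose 2.65-fold and 2.86-fold, 2 of 30 Wfdc and Spink genes to rise (6.67%, against 3.32% of all genes). Of 18 genes of epithelial injury and repair 5 rose and 1 fell, a fall lost without replicate 2, 3 or 4 of Ctl EDL or 2, 4 or 5 of Ctl sham (2 falls without cKO EDL replicate 3). With Mmp7 the rises were Vcam1 (2.06-fold), Cd44 (1.76-fold), the galectin gene Lgals3 (1.72-fold) and Krt19. Which cells of the bulk tissue carried these rises, epithelial or other, was not tested. Krt19 did not pass with the fixed replicate block (0.30, adjusted p = 0.0507) or without Ctl EDL replicate 3 (0.24 to 0.29 with arrays left out, adjusted p from 0.0554 to 0.122). Spp1, osteopontin, changed by 2.45 and did not pass. The largest rise past the threshold was that of Sectm1b, a secreted and transmembrane protein gene, which read 8.80, 9.65, 9.63 and 9.35 in Ctl EDL and 7.66, 6.58, 7.22 and 6.90 in Ctl sham tissue (4.82-fold higher). Smarca1, a chromatin remodelling ATPase, rose 3.28-fold. Cdkn1a, the cell cycle inhibitor p21, rose 1.40-fold, the only 1 of 19 apoptosis and p53 genes to pass (5.26% higher, against 3.32% of all genes).

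**Figure D4:**
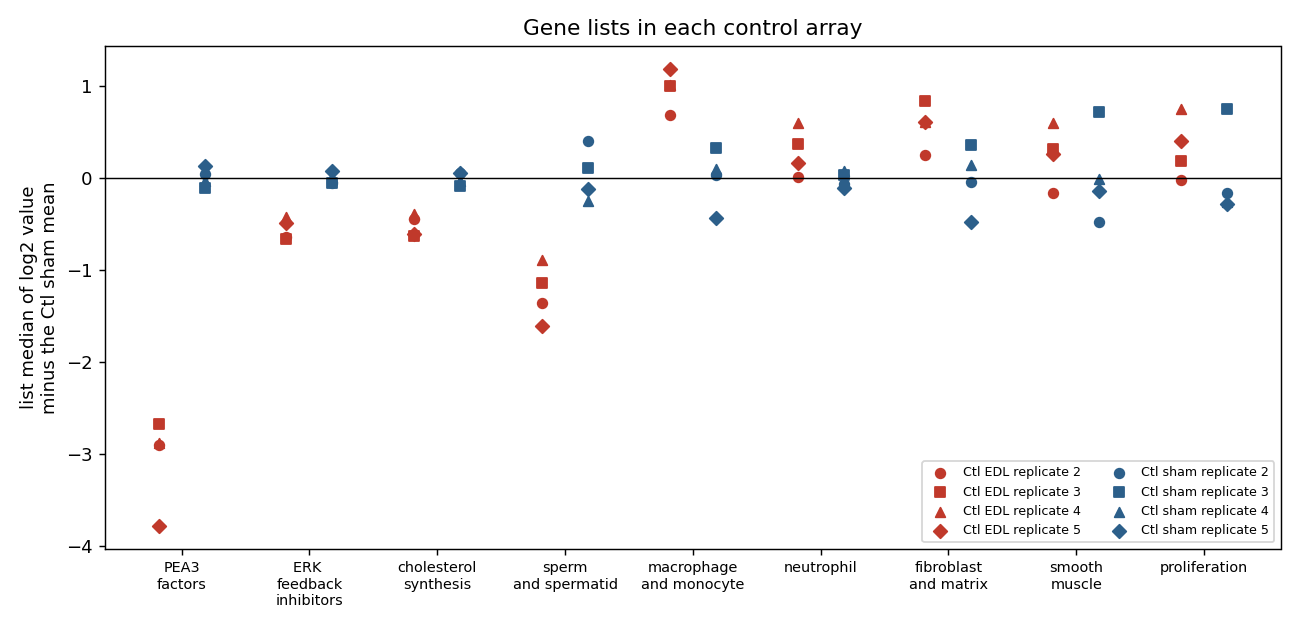
For 9 gene lists, the median over the list of each array's log2 value minus the Ctl sham mean, with Ctl EDL arrays (red) left of Ctl sham arrays (blue) and a symbol for each replicate number. PEA3, ERK feedback, cholesterol, sperm and macrophage lists separate the groups, while neutrophil, fibroblast and matrix, smooth muscle and proliferation lists overlap.

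The other cell types of the tissue showed smaller shifts. Of 13 basal cell genes 2 rose: Krt5 read 10.64, 10.41, 10.39 and 10.55 in Ctl EDL and 10.07, 10.16, 10.04 and 9.96 in Ctl sham tissue (0.44 ± 0.09, limma adjusted p = 0.00956), and Krt14 rose by 0.67 ± 0.17. Krt14 did not pass with the fixed replicate block (adjusted p = 0.055) or without replicate 2 or 4 of Ctl EDL or 2 or 5 of Ctl sham (0.52 to 0.66, adjusted p from 0.0512 to 0.121). Trp63, the transcription factor that defines basal cells, changed by -0.01 ± 0.10. Of 16 fibroblast and matrix genes Timp1 and Col5a1 rose and Tgfb1 fell by 0.57, with a list median of 0.59 and summed linear intensities of 15655 to 20698 in Ctl EDL and 10124 to 16290 in Ctl sham arrays. The number of rises in the list ran between 0 and 7 with 1 array left out: it was 7 without cKO sham replicate 2, 1 without cKO EDL replicate 2, 3 or 4, cKO sham replicate 4 or Ctl sham replicate 4, and 0 without replicate 3, 4 or 5 of Ctl EDL or 2 or 5 of Ctl sham. In limma no endothelial gene of 12 passed (median 0.26, with 6 at an unadjusted p under 0.05). None of 8 adipocyte genes (2 under 0.05 unadjusted) or 7 red blood cell genes (0 unadjusted) passed. The share of all genes at that unadjusted cut is not given, so these counts do not show that a list stood out.

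Smooth muscle genes, of the wall around the duct, did not pass except for Actg2, the gamma smooth muscle actin. It read 8.94, 9.45, 10.55 and 9.13 in Ctl EDL and 12.95, 12.95, 13.01 and 13.10 in Ctl sham tissue, an 11.2-fold fall (-3.48 ± 0.36, limma adjusted p = 1.87e-05). The other 10 genes of the list, among them Acta2 (0.31), Myh11 (0.29), Tagln (0.31) and Cnn1 (0.16), lay between -0.20 and 0.40 and did not pass. Actg2, like Prm2 and Odf1, was highest among the ligated sides in Ctl EDL replicate 4.

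Of 12 ER stress genes 4 fell by 0.29 to 0.53, all near the threshold (limma adjusted p = 0.0164 to 0.0422); Atf4, a transcription factor of the stress response, fell by 0.29. With 1 array left out the count was 2 without replicate 2 or 3 of Ctl EDL or 3 or 5 of Ctl sham, 1 without Ctl sham replicate 4 and 0 without Ctl EDL replicate 5. Serpins had 7 rises and 1 fall among 62 genes, led by Serpina3n (2.09-fold) and Serpina3m (2.01-fold), and 3 or 4 rises without any 1 of Ctl EDL replicates 3, 4 and 5 or Ctl sham replicates 2, 4 and 5. Serpina3n did not pass without replicate 5 of Ctl EDL or 2 or 5 of Ctl sham (0.90 to 1.02, adjusted p from 0.0539 to 0.141). No gene of 12 in the hedgehog list passed in limma (4 at an unadjusted p under 0.05, again without the share of all genes). Of 16 glutathione enzymes Gpx1 rose by 0.41 and Gpx6 fell by 0.60 (6.25% each way). Of 17 segment and lineage factors Bmp8a, a growth factor of the epididymis, fell 1.71-fold (5.88% lower), and 2 of them fell with the fixed replicate block or without Ctl EDL replicate 5. The shares of these 2 lists were near those of all genes, 3.32% higher and 4.57% lower. Of 13 motile cilium genes Foxj1, the master regulator of motile cilia, fell by 0.45, and 2 rose near the threshold (0 or 1 without any 1 array other than Ctl EDL replicate 2 or Ctl sham replicate 5). Of 15 NRF2 targets Gsta4 fell by 0.48 and 2 rose (1 without any 1 array other than Ctl EDL replicate 4 and cKO EDL replicates 2 and 4). Without Ctl sham replicate 3 the retinoid list and the glutathione list had 2 rises each. The T and NK cell list had 2 falls without Ctl EDL replicate 2 or cKO EDL replicate 2 or 3, and the apoptosis and p53 list 2 rises without Ctl EDL replicate 4, Ctl sham replicate 5 or cKO EDL replicate 3.

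Whether the response of Ctl mice differed from that of cKO mice was asked with the interaction, which uses no array in both arms. No gene passed (limma, smallest adjusted p = 0.427), and 899 of 21929 genes had an unadjusted p under 0.05. That is less than the share of 0.05 that such a cut gives on average where no gene differs. Teddm2 changed by -6.60 in Ctl and -6.90 in cKO, Etv5 by -4.61 and -4.53, Tecta by -3.61 and -4.27 and Lss by -1.11 and -1.05. Odf1 changed by -3.67 in Ctl and -2.08 in cKO, Actg2 by -3.48 and -2.48, Cldn10 by -1.40 and -1.97, and Krt14 by 0.67 and 1.31. With 4 Ctl and 3 cKO arrays a group, a difference smaller than the interval of a gene's interaction could not be seen. After adjustment over all genes, larger differences did not pass either. For Cldn10 the difference, cKO minus Ctl, was -0.57 ± 0.17 (limma unadjusted p = 0.00564, adjusted p = 0.985). The lack of calls therefore does not show that the responses were equal. For Odf1 the difference, cKO minus Ctl, was 1.59 ± 1.14 on the log2 scale, and for Krt14 0.64 ± 0.25.

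**Figure D5:**
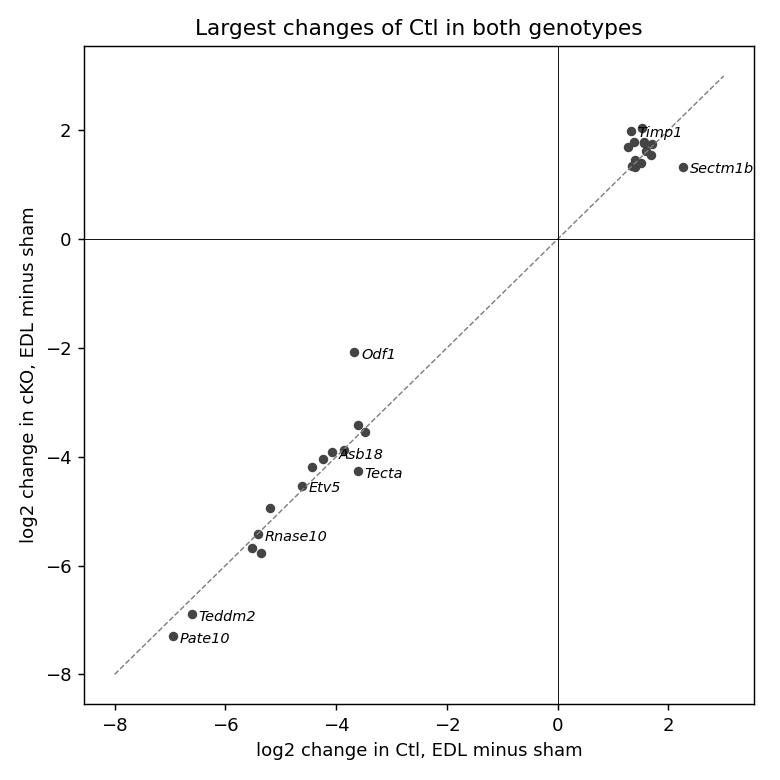
Log2 change after ligation in Ctl (horizontal) and in cKO mice (vertical) for the genes with the largest changes in Ctl, with a dashed line at equal change. Pate10, Krt23 and Pigr lie at the background in 1 Ctl group, so that their places give no exact size. Odf1 lies above the line (-3.67 in Ctl, -2.08 in cKO) and Sectm1b below it (2.27 in Ctl, 1.33 in cKO).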

How the data were processed

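RNA of 14 proximal epididymis samples was measured on Clariom S mouse arrays. The deposited table, in 2 parts, held log2 values of 22206 probe sets (2.33 to 13.91), and the submitters' processing notes name Affymetrix Expression Console, RMA and Partek 7.0 without their roles. A comparison table by the authors gave p-values, used only for a count after Benjamini-Hochberg adjustment here; 14 columns of array values in it were not used. A second deposited table of log2 values (up to 19.02), was an alternative; how it was normalized is not given in the sources used.

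Of the probe sets 20452 were named through RefSeq accessions (901 symbols updated, 14 that had turned into dates restored), and 3 had no symbol. For 180 symbols with several probe sets, that of the highest mean stood for the gene, which left 21929 genes, with no filter on low values. No build is stated for the array annotation; promoters came from the RefSeq table and its build.

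Changes came from limma, fitted to all 14 arrays with 1 mean per group (4 groups; degrees of freedom 10 residual, 4.16 prior; two-sided; adjusted p under 0.05). No set test was run: lists are given by counts and medians. A fold against a group mean below the 95th percentile of receptor genes is a bound computed from that percentile. Members, the 48 lists and the tests were chosen with earlier results of these data known. Named genes were the 15 largest falls and the 15 largest rises past the threshold without overlap between groups, up to 5 genes of each list by p, and a set of fixed genes. Predicted genes were counted without names, and some genes within the rule are not reported here. Spp1, Lcn2 and further list members outside the rule were named after their values were seen.

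The design says that both sides of each mouse were used, and a shared replicate number was taken as the mouse, which the labels do not state. Deviations of same-numbered Ctl arrays correlated at 0.198, 0.055, 0.024 and 0.157. Nothing says whether arrays are single mice or pools, so p-values measure the spread between these arrays. Arrays have no depth, and their number limits the precision: the 95% interval of a gene with the median error reached 0.22 to either side. Array medians were 6.99 to 7.09. The scan date was the same for all arrays (1 date), which left no scan batches to compare. Other batches, such as days of surgery or RNA extraction, were not tested.

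In simulated data for this comparison (21929 genes), 94% of 2-fold and 64% of 1.41-fold changes were recovered, with 14 false calls. The noise was normal with the moderated variance of each gene, and independent between genes and arrays. Variation shared by genes, such as that of cell content, or by the arrays of a mouse was not simulated. The shares are therefore not the recovery to be had in these tissues. The alternatives were replicate blocks, only the 8 Ctl arrays, quantile normalization, centring, other variance models, array weights, a filter on dim genes, other thresholds, means of probe sets, the second table, and leaving out arrays. The work used R 4.3.3, limma 3.58.1, Python 3.11.15, pandas 2.3.3, numpy 2.4.6 and matplotlib 3.10.9.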

Additional observations from a re-analysis of the deposited data

Results flagged for a closer look

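In 14 of the 336 groups of 4 arrays examined for the named genes, 1 array stood apart from the other 3 of its group, about as many as chance gives (about 1 in 20 groups). In the Ctl EDL group these arrays read 7.67 for Cd53 (group median 8.37), 8.71 for Spry1 (8.34), 5.10 for Erbb4 (5.60), 11.83 for Gpx1 (12.05), 7.94 for Atp6v0a4 (7.79) and 8.03 for Prm2 (6.45). In the Ctl sham group they read 12.83 for Defb47 (group median 13.00), 12.19 for Cst12 (12.36), 8.11 for Spink4 (7.81), 9.68 for Pmvk (9.83), 8.98 for Slc4a4 (9.21), 9.32 for H2-DMb2 (9.39), 10.63 for Cd74 (10.40) and 10.33 for Trp63 (10.66). The gap was widest for Prm2, where Ctl EDL replicate 4 lay above the other ligated sides; the same array was highest for Odf1 and Actg2. The cause was not tested.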

How the results depend on the processing

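With the replicate number as a fixed replicate block 699 genes were higher and 930 lower, and as a random block 955 and 1135 (consensus correlation 0.109), against 727 and 1002; of the named genes past the threshold 7 lost their call with the fixed block. Replicates 2 and 5 correlated best with their own number, replicates 3 and 4 with each other. An adjusted p under 0.01 left 231 and 602 genes, and at least 2-fold changes 54 and 231; both follow from the stricter rule. With arrays left out, singly or both of a number, higher genes numbered 201 to 788 and lower genes 587 to 1007, the fewest without replicate 5. Without the pairs of replicates 3 and 4 the higher genes numbered 482 and 325. The other alternatives gave 567 to 887 higher and 887 to 1163 lower genes. No named gene past the threshold reversed (153 genes). Of them 56 lost the call somewhere, 30 with a single array left out and 20 under an alternative that leaves out no array. Another 25 lost it only without both arrays of a number, among them Srd5a1, Fgfr2, Krt5, Mrc1, Tlr7, Nr1h3, Gpx6 and Cd44. The interaction count was 0 in each alternative that could be fitted; with only the 8 Ctl arrays it could not be. The authors' p-values, adjusted here, called 1470 genes. Signal near the receptor background limits what can be said of genes such as Fgf7, Adam2 and Cstl1. With the second deposited table log2 changes were a median 1.64 times those printed, so fold sizes hold for the first table only.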
